A study of Homo sapiens with 30 samples.

Results

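The pregnancy-specific glycoproteins (PSGs) are encoded by a cluster of near-identical genes on chromosome 19. The 10 members described here are PSG1 to PSG9 and the pseudogene PSG10P, all of which were found among the 20367 gene symbols of the PRO-Seq table, each with 1 transcript. PSG10P was chosen by its pausing index, which was lower with both test constructs than with the control in these same libraries, and the other 9 members were taken with it by family name. PSG10P is therefore described without a test in the contrasts against the control, and counts of calls are given over the other 9 members. The cells were G401, a line from a malignant rhabdoid tumour that lacks SNF5 (SMARCB1), a core subunit of the SWI/SNF chromatin remodeling complex. They were transduced with a tetracycline-inducible lentivirus (pInducer20) carrying HA-tagged EGFP (the control), OmoMYC (OMOMYC, a dominant-negative form of MYC) or SNF5, selected with G418, and induced with 1 ug/ml doxycycline for 24 h in every group. Nascent transcription was measured by PRO-Seq and open chromatin by ATAC-Seq in 3 libraries per construct, and MYC binding by ChIP-Seq in 2 libraries per construct.

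PSGs are secreted proteins of the carcinoembryonic antigen (CEA) family, built of immunoglobulin-like domains, and syncytiotrophoblast of the placenta releases them into the maternal blood in large amounts. PSG1 and related members bind integrins, proteoglycans and the tetraspanin CD9, and activate latent TGF-beta. PRO-Seq maps engaged RNA polymerase, so reads just downstream of a gene start measure polymerase held near the promoter and reads farther on measure polymerase that elongates. The pausing index is the ratio of the density in the first region to that in the second.

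All 10 members lie on the minus strand between positions 43225794 and 43773682 of chromosome 19 (hg19), in the order PSG3, PSG8, PSG10P, PSG1, PSG6, PSG7, PSG2, PSG5, PSG4 and PSG9. A further family gene of the table, PSG11, lies between PSG7 and PSG2 and is given beside them. The 300-base windows around the listed starts (250 bases before, 50 from the start on) were much alike, with a median identity of 95.2% over the 45 pairs of members (range 91.6 to 97.7%). Of 4 short motifs searched on both strands, the E-box CACGTG, the TATA box TATAAA and the AP-1 site TGANTCA matched in 0 of the 10 windows. They matched in 7.26%, 11.5% and 7.71% of 35116 RefSeq promoters of the same length (GRCh38). The GC box GGGCGG matched in 5 of 10 windows (PSG3, PSG8, PSG6, PSG4 and PSG9), against 15786 of the 35116 RefSeq promoters. The windows of 4 members are printed: PSG9 and PSG4 had the highest transcription, PSG10P chose the family, and PSG3 differed from the rest in sign. It alone had promoter-proximal and pausing estimates above 0 with SNF5, neither of them called, while its gene body reads were lower. Capitals mark the GC box, which appears as its reverse complement, and all are hg19, minus strand, 5′ to 3′, from the reference genome.
PSG9, chr19:43773633-43773932: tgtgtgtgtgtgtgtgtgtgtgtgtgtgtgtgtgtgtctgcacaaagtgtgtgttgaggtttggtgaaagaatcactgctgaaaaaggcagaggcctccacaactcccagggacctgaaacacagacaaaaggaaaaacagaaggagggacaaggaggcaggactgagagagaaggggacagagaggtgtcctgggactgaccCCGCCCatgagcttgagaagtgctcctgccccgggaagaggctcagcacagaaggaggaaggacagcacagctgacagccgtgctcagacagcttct
PSG4, chr19:43709741-43710040: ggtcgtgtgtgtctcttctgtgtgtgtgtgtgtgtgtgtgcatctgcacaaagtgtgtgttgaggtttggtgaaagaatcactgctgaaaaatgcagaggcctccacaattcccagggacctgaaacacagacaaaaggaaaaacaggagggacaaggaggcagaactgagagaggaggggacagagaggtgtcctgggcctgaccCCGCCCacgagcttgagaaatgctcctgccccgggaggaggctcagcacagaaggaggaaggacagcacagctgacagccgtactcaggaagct
PSG10P, chr19:43359821-43360120: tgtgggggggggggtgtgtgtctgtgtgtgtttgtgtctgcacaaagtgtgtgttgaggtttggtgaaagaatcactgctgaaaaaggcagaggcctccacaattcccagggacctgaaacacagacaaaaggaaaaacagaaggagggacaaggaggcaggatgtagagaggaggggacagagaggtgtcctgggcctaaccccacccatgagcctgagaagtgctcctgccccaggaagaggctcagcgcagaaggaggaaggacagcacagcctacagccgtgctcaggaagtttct
PSG3, chr19:43244619-43244918: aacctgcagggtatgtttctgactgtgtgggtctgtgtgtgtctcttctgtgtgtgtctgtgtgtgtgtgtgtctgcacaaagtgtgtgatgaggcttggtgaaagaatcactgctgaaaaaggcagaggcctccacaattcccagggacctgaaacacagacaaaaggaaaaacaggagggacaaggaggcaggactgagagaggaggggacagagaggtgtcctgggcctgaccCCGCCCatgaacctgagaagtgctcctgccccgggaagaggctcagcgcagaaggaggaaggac

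The cluster was transcribed in G401 cells. In EGFP cells, PSG4 had a gene body level of 11.7 ± 2.57 RPKM (SD, n = 3; reads per kb of gene body per 1000000 gene body reads of the library) and PSG9 had 11.0 ± 3.85. These levels were above 97.9% and 97.8% of the 18579 genes with any gene body read in the 9 libraries. The median gene below is the median of those 18579. PSG8 (7.13 ± 2.66), PSG3 (5.36 ± 3.201) and PSG1 (5.15 ± 1.96) followed. PSG7 (3.18 ± 1.73), PSG5 (2.59 ± 0.536), PSG2 (2.09 ± 0.734), PSG10P (1.49 ± 0.826) and PSG6 (1.04 ± 0.720) were lower, and all were above the median gene at 0.754. The difference between neighbours in this order was smaller than the larger of their SDs, except between PSG1 and PSG7. PSG11 had 1.40 ± 0.490. The level dropped at the edges of the cluster: CEACAM8, the next gene beyond PSG3 at 126711 bp, had 0.0418 ± 0.0262, and CD177, the next beyond PSG9 at 84142 bp, had 0.982 ± 0.450. Across the 30 other genes within 500 kb the median level was 1.17, and 1 of them (ERF, a transcriptional repressor, at 12.6 ± 1.61) exceeded PSG9. Together the 10 members held 0.0440 to 0.0821% of the gene body reads of a library.

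**Figure D1:**
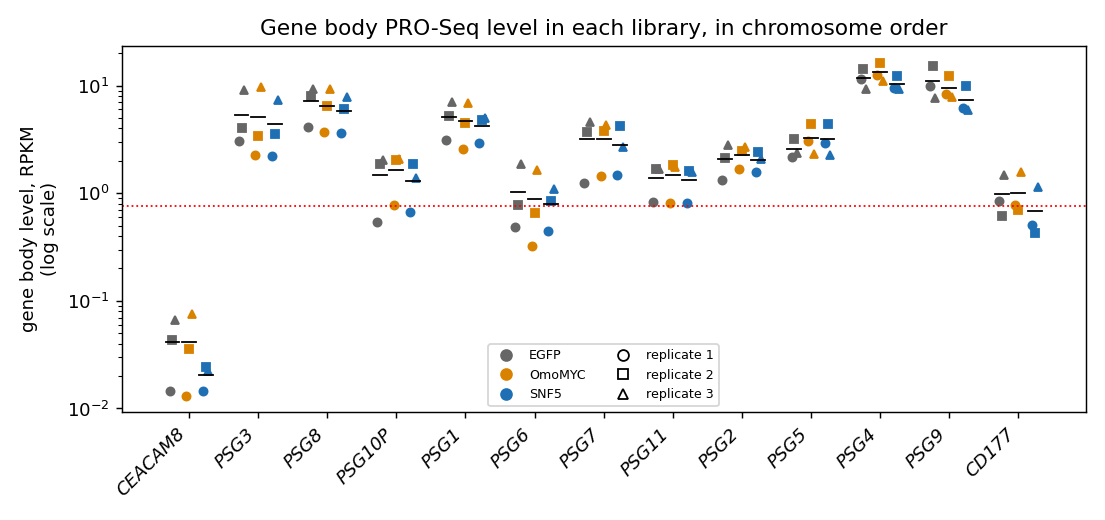
Gene body PRO-Seq level in RPKM (log scale) in each of the 9 libraries, for the members, PSG11 and the nearest gene on each side, in chromosome order; colours give the construct, symbols the replicate number, black bars the mean of 3, and the red dotted line the median gene in EGFP cells (0.754). All members lie above CEACAM8, whose EGFP mean is 0.0418.

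Of the 37 trophoblast genes in the table, 28 had any gene body read in the 9 libraries. The rest, among them CGB5 and CSH1, had 0 gene body reads in every library. Of the 28, 21 were below the median gene in EGFP cells, 20 of them under 0.1 RPKM, and 7 were at or above it. CGA, the alpha subunit of chorionic gonadotropin, had 0 to 4 gene body reads per library, GCM1, a transcription factor of syncytiotrophoblast, had 2 to 8, and TFAP2C had 0 to 16. The highest of the list were the transcription factors TFAP2A (8.90 ± 6.54 RPKM in EGFP cells, n = 3) and GATA2 (8.05 ± 1.36), followed by DLX3 (3.25 ± 0.471) and TEAD3 (3.03 ± 0.809). The mesenchymal markers VIM (35.6 ± 13.1) and COL1A1 (3.90 ± 1.29) were well transcribed, while the leukocyte marker PTPRC had 0 or 1 reads in every library. SMARCB1 had 1 to 6 gene body reads in each EGFP and OmoMYC library and 2870 to 4467 in each SNF5 library. Gene body totals ran from 28388012 to 46859674 reads, and promoter-proximal totals from 517824 to 671718 in the libraries numbered 1 against 2024662 to 3381190 in the others. The members' reads are also hard to place: 46.3 to 61.2% of the 30-base words of their gene bodies, and 29.4 to 59.3% of those within 500 bp of their starts, occurred again in another gene of the family, so reads could be split between or lost from near-identical copies, and a value of 1 member is uncertain to that extent.

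Promoter-proximal reads of several members were lower in SNF5 cells than in EGFP cells. PSG9 had 3.82, 13.6 and 5.02 promoter-proximal reads per 1000000 gene body reads in EGFP libraries 1, 2 and 3, and 2.15, 4.58 and 1.87 in the SNF5 libraries. Within each replicate number the SNF5 library was lower, although the 2 groups overlap when the numbers are ignored. The fitted log2 change was -1.29 ± 0.21 (SE; edgeR quasi-likelihood test, adjusted p = 0.000174), to 0.408 of the EGFP level. PSG6 had 19, 35 and 93 reads in EGFP and 7, 19 and 31 in SNF5 libraries, a log2 change of -1.43 ± 0.32 (adjusted p = 0.00642). PSG1, which is among the most abundant PSGs of maternal blood, had 47, 164 and 335 against 30, 99 and 141 reads, a log2 change of -1.05 ± 0.22 (adjusted p = 0.00446). PSG4 had 329, 1508 and 1004 against 302, 783 and 453 reads, a log2 change of -0.90 ± 0.22 (adjusted p = 0.0153). All 4 were lower in each of the 3 replicate numbers.

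In all, 4 of the 9 members passed the threshold of 0.05, each downward, where 1.67% of 11241 genes fell. The other members had smaller or more variable differences: PSG7 -1.10 (adjusted p = 0.0638), PSG2 -0.61 (0.116), PSG8 -0.55 (0.165), PSG5 -0.36 (0.391) and PSG3 0.09 (0.869), all edgeR log2 changes. PSG7 had only 6 reads in EGFP library 1 against 70 and 99 in the others. The median over the 9 members was -0.90, against -0.05 over all genes tested. 5 of the 9 were lower in SNF5 cells in all 3 replicate numbers, a pattern seen in 18.8% of genes. PSG11 had a log2 change of -0.84 (adjusted p = 0.0794). The number of members called was 1 without EGFP library 2, 2 without EGFP library 3, 2 without SNF5 library 2, 2 without SNF5 library 3, 7 without EGFP library 1, and 1 without all libraries numbered 2. Without EGFP library 1 the fit called 1275 of 11322 genes, of which 873 fell. PSG9 stayed past the threshold when any single library was left out, and not without all libraries numbered 2. All these fits hold the replicate number as a block. Without it, edgeR called 0 of the 9 members in promoter-proximal reads, gene bodies and pausing index in every contrast, and 0 of the 11241 genes in promoter-proximal reads, of which 48 had an unadjusted p under 0.05 for SNF5 against EGFP. With each region scaled by its own total, 454 genes rose and 587 fell, in place of 295 and 188. Under that scaling PSG9, PSG1, PSG4 and PSG6 were still called downward. PSG7 (log2 change -1.10, edgeR adjusted p = 0.0334) and PSG2 (-0.63, 0.0352) were called as well.

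With OmoMYC the promoter-proximal differences were smaller. None of the 9 members passed the threshold by edgeR or by DESeq2, where 1.75% of genes did, and 4 had an unadjusted p under 0.05. The log2 changes against EGFP were -0.72 for PSG6, -0.54 for PSG7, -0.53 for PSG8, -0.50 for PSG9, -0.47 for PSG1, -0.35 for PSG4 and -0.17 for PSG5, with PSG2 at 0.01 and PSG3 at 0.38. Their median was -0.47 where the median gene stood at 0.12. With each region scaled by its own total the median gene moved to -0.03, and the members moved down as well. PSG6 was then at -0.80, PSG7, PSG8 and PSG9 at -0.67, PSG1 at -0.62, PSG4 at -0.52 and PSG5 at -0.35. PSG2 was at -0.15 and PSG3 at 0.27. PSG9 was called under that scaling (edgeR adjusted p = 0.0463), beside 221 of 11241 genes. 2 of the 9 members (PSG6 and PSG9) were lower in all 3 replicate numbers, against 8.58% of genes, and 1 member was called without all libraries numbered 3. PSG9 had 3.18, 9.30 and 3.58 reads on the same scale with OmoMYC, between its EGFP and SNF5 values within every number. SNF5 and OmoMYC cells were also compared directly. PSG9 was lower with SNF5 by a log2 value of -0.79 ± 0.22 (edgeR adjusted p = 0.0684). None of the 9 members passed by edgeR or DESeq2, where 0.836% of genes did by edgeR, and 5 had an unadjusted p under 0.05. 1 member was called without EGFP library 1, EGFP library 3 or all libraries numbered 3. The contrasts against EGFP share their EGFP libraries.

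**Figure D2:**
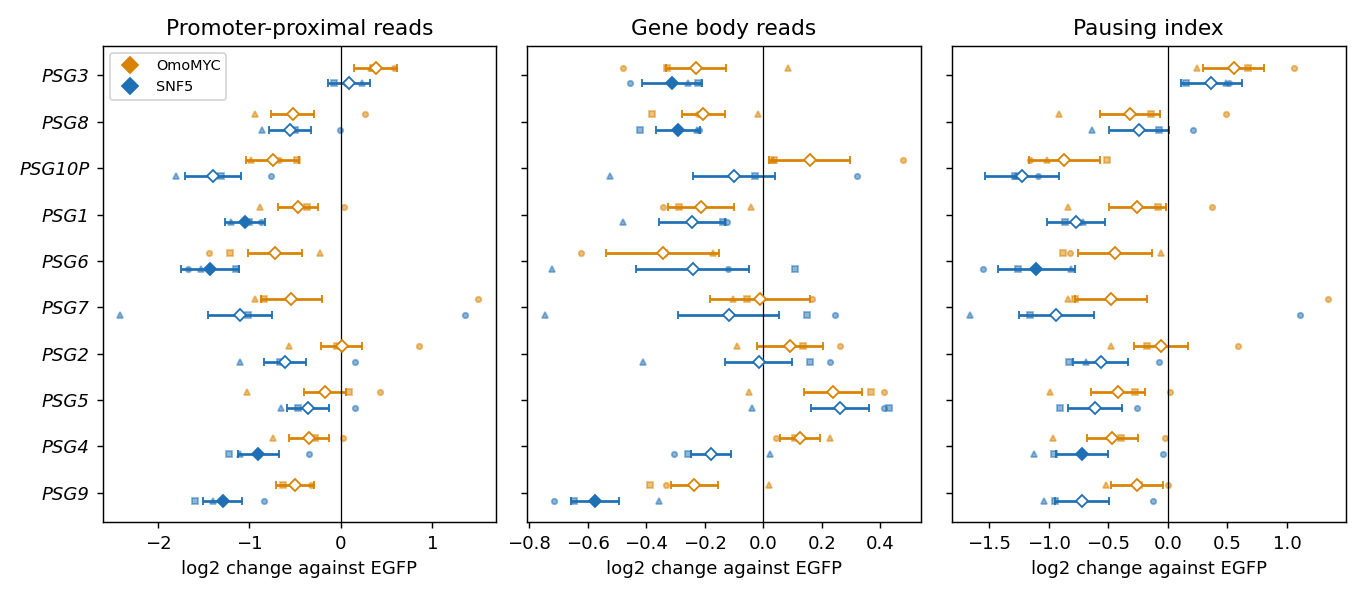
Log2 change of each member against EGFP in promoter-proximal reads, gene body reads and pausing index, with OmoMYC in orange and SNF5 in blue; diamonds and bars give the edgeR estimate and its standard error, small symbols the 3 replicate numbers, and filled diamonds an adjusted p under 0.05 (PSG10P is drawn open because its pausing chose the family). The SNF5 promoter-proximal estimates lie left of 0 for all members except PSG3, at 0.09.

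Gene body reads changed less. PSG9 had 9.99, 15.2 and 7.71 gene body RPKM in EGFP and 6.13, 9.86 and 5.92 in SNF5 libraries, lower within every number. Its log2 change was -0.58 ± 0.08 (edgeR, adjusted p = 0.0012), or 0.671 of the EGFP level. PSG3 fell by 0.31 on the log2 scale (adjusted p = 0.0425) and PSG8 fell by 0.29 (adjusted p = 0.0162), and neither passed in promoter-proximal reads. PSG5 at 0.26 (adjusted p = 0.0669), PSG4 at -0.18 (0.0688) and PSG1 at -0.24 (0.122) were not called by edgeR. Thus 3 of the 9 members passed by edgeR, each downward, beside 17.1% of the 15060 genes tested that fell. DESeq2 called these 3 and also PSG5, upward (log2 change 0.26, DESeq2 adjusted p = 0.0494). 4 of the 9 were lower in all 3 replicate numbers, against 32.1% of genes. The number called was 1 without EGFP library 1, EGFP library 2 or SNF5 library 2, and 5 without EGFP library 3. Without all libraries numbered 1, or all numbered 2, it was 1, and without those numbered 3 it was 8, of which 5 fell and 3 rose: PSG5 (log2 change 0.41, edgeR adjusted p = 2.09e-05), PSG7 (0.18, 0.0468) and PSG2 (0.18, 0.0315). The fit without those numbered 3 called 8592 of 14939 genes, of which 4827 fell and 3765 rose. PSG9 was called in every one of these fits.

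With OmoMYC no member passed in the gene body by edgeR or DESeq2, beside 8.49% of genes, and 3 had an unadjusted p under 0.05. 3 of the 9 (PSG8, PSG1 and PSG6) were lower in all 3 numbers, against 27.9% of genes. The log2 changes ran from -0.34 (PSG6) to 0.24 (PSG5). The count was 3 without EGFP, OmoMYC or SNF5 library 3, and 7 without all libraries numbered 3. Over all genes, 3302 of 15046, 2273 of 15045 and 3577 of 15008 were called without EGFP, OmoMYC and SNF5 library 3. Without all libraries numbered 3, 6752 of 14939 genes were called. Between SNF5 and OmoMYC, PSG4 was lower with SNF5 by -0.30 ± 0.07 (edgeR adjusted p = 0.0149) and PSG9 by -0.34 ± 0.08 (adjusted p = 0.0197). These 2 of 9 stand beside 7.56% of genes that fell. Leaving out OmoMYC library 1, SNF5 library 1 or SNF5 library 2, or all libraries numbered 1 or 2, removed both calls, leaving out OmoMYC library 2 or 3 left 1, and without all libraries numbered 3 there were 4. That last fit called 6269 of 14939 genes.

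The pausing index of PSG10P, by which the family was chosen, was 17.1, 12.3 and 18.9 in EGFP libraries 1, 2 and 3. With OmoMYC it was 7.69, 8.63 and 9.38, and with SNF5 8.07, 5.06 and 7.83, so the EGFP values did not overlap the others. These ratios rest on few promoter-proximal reads: 16, 35 and 90 in EGFP, 10, 25 and 46 in OmoMYC and 11, 17 and 25 in SNF5 libraries. The fitted log2 change in pausing index was -0.87 ± 0.30 with OmoMYC and -1.23 ± 0.31 with SNF5, given as the values that chose it. Its gene body had log2 changes of 0.16 ± 0.14 and -0.10 ± 0.14, and its promoter-proximal reads -0.74 ± 0.29 and -1.40 ± 0.30. The contrast between SNF5 and OmoMYC gave a log2 difference in pausing index of -0.36 ± 0.33.

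Among the other members, 2 of 9 passed for a lower pausing index in SNF5 cells, where 1.64% of 11171 genes fell. This count may not be independent of the choice of PSG10P, which used the same measure and libraries and shares sequence with these members. The same holds for promoter-proximal reads, which are part of the index. PSG6 had 22.7, 29.9 and 21.5 in EGFP and 7.76, 12.5 and 12.2 in SNF5 libraries, 2 groups that do not overlap, and a log2 change of -1.10 ± 0.32 (edgeR adjusted p = 0.0364). PSG4 had 16.3, 69.6 and 46.3 against 15.8, 35.8 and 21.3, a log2 change of -0.72 ± 0.21 (adjusted p = 0.043). PSG4's index in libraries numbered 1 was nearly alike in the 2 groups, and its difference lay in numbers 2 and 3. PSG9 at -0.72 (adjusted p = 0.054), PSG1 at -0.77 (0.0608), PSG7 at -0.94 (0.0788), PSG5 at -0.61 (0.118), PSG2 at -0.56 (0.163) and PSG8 at -0.24 (0.65) were not called. PSG3 alone had a higher value, 0.36 ± 0.26 (adjusted p = 0.467), with 2.65, 11.2 and 8.72 in EGFP and 3.78, 12.4 and 12.2 in SNF5 libraries. 6 of the 9 were lower in all 3 replicate numbers, against 15.4% of genes, and the median over the 9 was -0.72 against 0.01 over all genes.

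These pausing calls depended on the fit. No member was called by DESeq2, with only the EGFP and SNF5 libraries fitted, without EGFP library 2, without SNF5 library 2 or 3, or without all libraries numbered 2. There was 1 call without EGFP library 3, without OmoMYC library 1 or 2, or without all libraries numbered 3. There were 6 without EGFP library 1 and with each region scaled by its own total, and 4 without OmoMYC library 3. Over all genes these fits called 935 of 11253, 789 of 11171 and 499 of 11173, in that order. With OmoMYC, none of the 9 passed by edgeR or DESeq2, where 2.26% of genes did, and 2 had an unadjusted p under 0.05. The log2 changes ran from -0.48 (PSG7) to 0.55 (PSG3), with 2 members (PSG6 and PSG4) lower in all 3 numbers against 7.39% of genes, and 1 member was called without EGFP library 1. Between SNF5 and OmoMYC none of the 9 passed by either tool, where 1.23% of genes did by edgeR, and 3 had an unadjusted p under 0.05. Without all libraries numbered 3, 1 member was called.

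**Figure D3:**
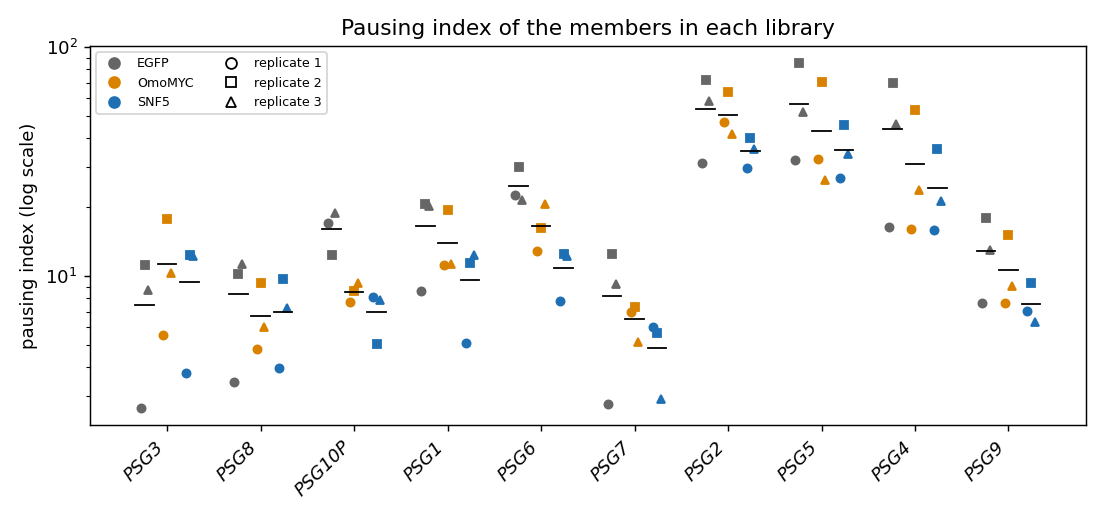
Pausing index (promoter-proximal density over gene body density, log scale) of the 10 members in each library; colours give the construct, symbols the replicate number and black bars the mean of 3. The EGFP values of PSG10P (12.3 to 18.9) and PSG6 (21.5 to 29.9) lie above all SNF5 values of the same gene, while the groups of PSG3 overlap.

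Open chromatin was not seen at the starts of the members. No ATAC-Seq peak of any of the 9 libraries lay within 1 kb of the start of any of the 10 members, including PSG4 and PSG9. Of the 342 other genes with an EGFP gene body level at least that of PSG4, 91.5% had such a peak in at least 1 library, and of the 1149 at or above PSG1, 88.8% did. The words shared among the starts, given above, bear on how reads place there, and their part in this was not tested. Within the cluster (chr19:42721642-43269530, hg38) the EGFP libraries had 0, 5 and 0 peaks, the OmoMYC libraries 0, 6 and 0, and the SNF5 libraries 9, 4 and 4. The mean was 5.67 ± 2.89 (SD, n = 3) with SNF5 and 1.67 ± 2.89 with EGFP (exact two-sided permutation test, p = 0.3, the smallest possible with 3 against 3 being 0.1). The libraries also differed in their number of peaks over the genome, from 7260 (OmoMYC library 1) to 33596 (SNF5 library 1), and the 5 libraries with at least 17817 peaks were those with any in the cluster. As a share of the peaks of a library the difference was 0.0198% against 0.00935% (exact permutation p = 0.4).

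Merging overlapping peaks gave 14 sites in the cluster out of 40005 over the genome. 1 site, at chr19:43200938-43201206 (hg38) within PSG4, had a peak in all 3 SNF5 libraries and in none of the EGFP or OmoMYC libraries, at 4.28, 4.93 and 5.01-fold enrichment. Such a gain against EGFP was seen at 9.09% of sites. It rests on overlap of at least 1 bp: with a reciprocal overlap of 50% no site of the cluster met it. The site within PSG9 (chr19:43264477-43265105) and one between PSG4 and PSG9 (chr19:43224290-43224807) each had a peak in EGFP library 2, OmoMYC library 2 and all 3 SNF5 libraries. A site in PSG10P (chr19:42851022-42851330) had a peak in OmoMYC library 2 and SNF5 libraries 1 and 2. The most widely shared site nearby lay outside the cluster, 16809 bp before the start of PSG9, with a peak in 8 of the 9 libraries.

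**Figure D4:**
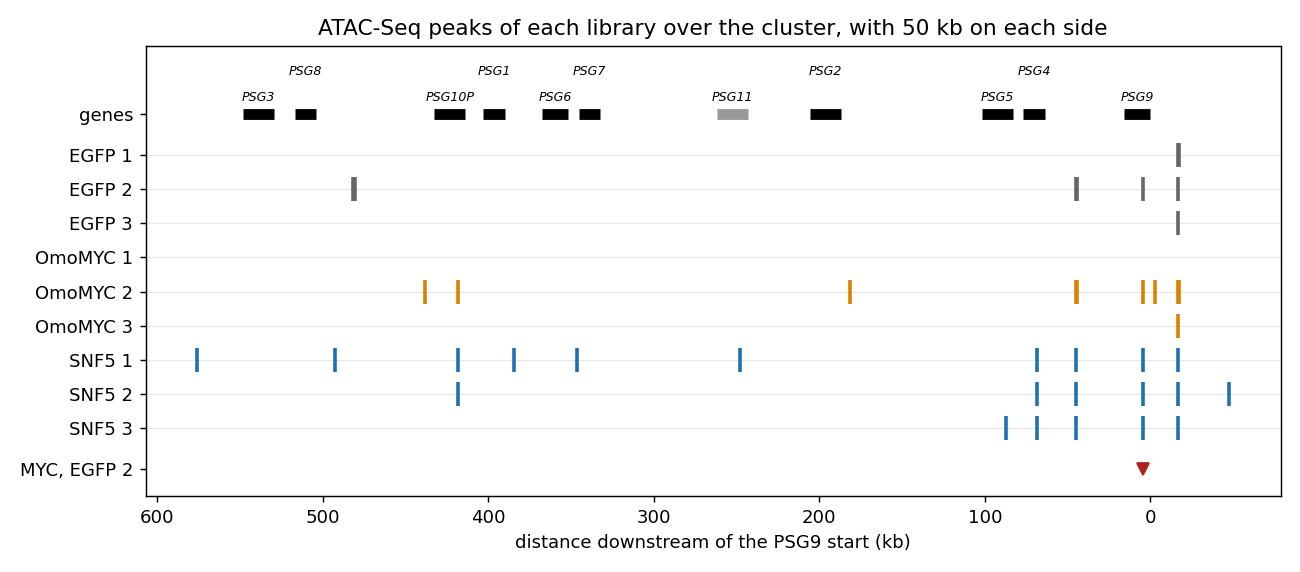
ATAC-Seq peaks (vertical ticks) of each library along the cluster and 50 kb on each side, against the distance downstream of the PSG9 start in kb; black bars mark the 10 members, the grey bar PSG11, and the red triangle the MYC ChIP-Seq peak of EGFP library 2. Peaks at PSG4 occur in the 3 SNF5 libraries and in no other.

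The 5 sites that fell inside a gene of the family lay at nearly the same distance from its start. Their centres were 4542 bp into PSG10P, 4548 bp into PSG11, 4504 bp into PSG5, 4566 bp into PSG4 and 4739 bp into PSG9. The sites in PSG11 and PSG5 had a peak in 1 library each. The 1 MYC ChIP-Seq peak in the cluster fell at the same place: in EGFP library 2 a peak of 166 bp at chr19:43769104-43769269 (hg19) had its summit 4502 bp into PSG9. Its enrichment was 3.95-fold and its −log10 q 3.90, and 13.3% of the 5396 peaks of that library had a lower enrichment. EGFP library 1 (940 peaks), SNF5 libraries 1 and 2 (137 and 27 peaks) and both OmoMYC libraries, whose lists hold 1 line each that the file itself names as fake, had none in the cluster or within 50 kb of it.

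The sequence of that MYC peak was found again in its sister genes. Aligned to the hg19 span of each, it matched in 9 of the 10 members (itself included) and in PSG11, starting 4413 to 4541 bp from the start, with 92.1 to 95.2% identity to PSG9 in the other 8 members. In PSG6 the best alignment was shorter and elsewhere, 124 bases at 80.6% identity starting 7222 bp in, and is not counted. The stretch lies in the second intron of the canonical GENCODE transcript of each matching gene, after exon 2, and overlaps no annotated exon of any listed transcript. All 5 intragenic ATAC-Seq sites covered at least 140 bp of it, by distance from the start. Reads from 1 copy of so similar a stretch could be placed at another. The study's methods name no mapping quality limit for ATAC-Seq or ChIP-Seq. These sites and the MYC peak may therefore not be independent of each other, which was not tested. The E-box CACGTG did not match in the PSG9 peak, and the looser CANNTG matched at 1 place. The stretch is printed on the coding strand for PSG9, for the members with an ATAC-Seq site, and for PSG1 and PSG3, which had none. Capitals mark bases that differ from PSG9 or are inserted relative to it.
PSG9, chr19:43769104-43769269: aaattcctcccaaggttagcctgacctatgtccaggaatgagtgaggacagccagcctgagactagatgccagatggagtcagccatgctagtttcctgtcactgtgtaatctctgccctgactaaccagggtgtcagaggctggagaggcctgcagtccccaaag
PSG4, chr19:43705205-43705371: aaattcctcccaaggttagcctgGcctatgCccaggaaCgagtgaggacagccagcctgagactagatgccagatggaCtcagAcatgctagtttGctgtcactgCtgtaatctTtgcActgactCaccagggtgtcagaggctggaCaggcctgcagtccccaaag
PSG5, chr19:43686107-43686271: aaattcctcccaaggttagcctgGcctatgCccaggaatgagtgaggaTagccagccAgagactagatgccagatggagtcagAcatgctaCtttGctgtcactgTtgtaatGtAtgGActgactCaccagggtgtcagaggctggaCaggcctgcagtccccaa
PSG10P, chr19:43355245-43355411: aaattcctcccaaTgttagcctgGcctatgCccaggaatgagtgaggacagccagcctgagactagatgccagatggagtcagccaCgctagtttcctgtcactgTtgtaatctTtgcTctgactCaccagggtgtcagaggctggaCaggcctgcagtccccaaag
PSG1, chr19:43379203-43379368: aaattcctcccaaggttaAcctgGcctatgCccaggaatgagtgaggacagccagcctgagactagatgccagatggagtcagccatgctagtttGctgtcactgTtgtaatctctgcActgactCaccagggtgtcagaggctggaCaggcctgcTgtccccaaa
PSG3, chr19:43240014-43240179: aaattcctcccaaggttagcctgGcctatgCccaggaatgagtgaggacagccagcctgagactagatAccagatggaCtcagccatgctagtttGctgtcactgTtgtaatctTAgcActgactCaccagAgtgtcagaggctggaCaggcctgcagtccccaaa

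**Figure D5:**
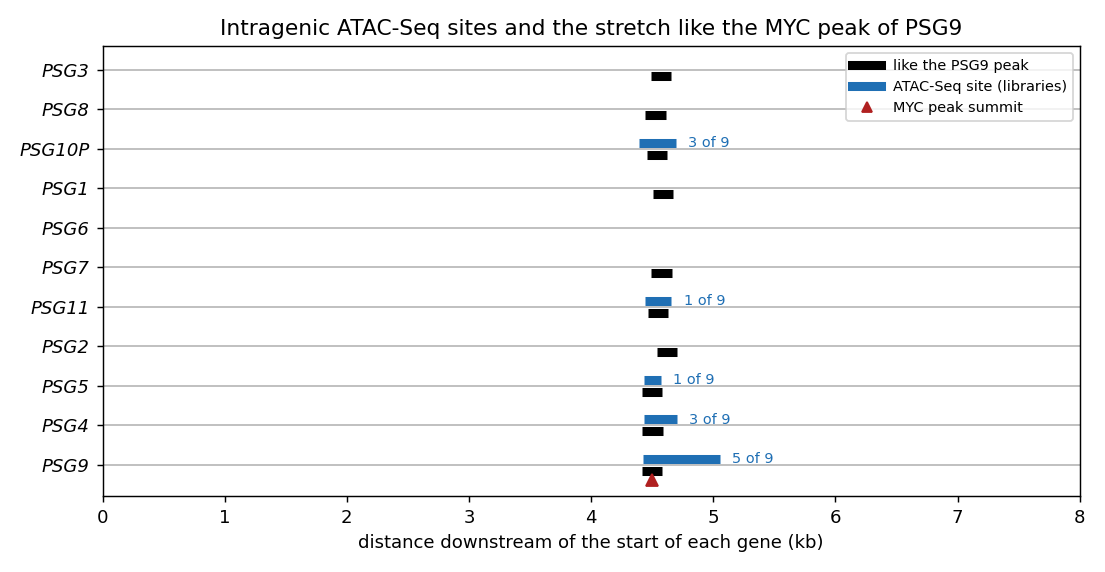
Position of the stretch like the MYC peak of PSG9 (black), of the intragenic ATAC-Seq sites (blue, with the number of libraries out of 9 that had a peak) and of the MYC peak summit (red), as distance in kb from the start of each gene. The ATAC-Seq centres lie between 4504 and 4739 bp in the 5 genes that have one, and PSG6 has no matching stretch.

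Genes around and related to the cluster were looked at in the same way. Of the 30 other genes within 500 kb, 21 passed the promoter-proximal filter and 1 fell with SNF5: CIC, a transcriptional repressor (log2 change -1.02 ± 0.23, edgeR adjusted p = 0.00689). In their gene bodies 9 of 29 fell and 2 rose with SNF5, beside 17.1% and 17.3% of all genes. Those that fell included TMEM145 (-1.13, adjusted p = 0.00334), ZNF576 (-0.65, 0.00932), KCNN4, a calcium-activated potassium channel (-0.63, 0.00757), PAFAH1B3 (-0.58, 0.00962), CIC (-0.39, 0.00365) and ERF (-0.33, 0.0032). CEACAM8, next to PSG3, had 6 to 48 gene body reads per library. Of 12 other CEA family genes only 3 passed the gene body filter, and CEACAM1, a cell adhesion receptor, rose with SNF5 (0.56 ± 0.13, adjusted p = 0.0119), in the direction opposite to the members called. The 2 remaining genes, CEACAM8 and CEACAM19, were not called in any contrast.

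Of 39 genes typical of trophoblast, 37 were in the table and 15 passed the gene body filter. With SNF5, 5 rose and 1 fell, beside 17.3% and 17.1% of all genes, with a median log2 change of 0.74 against -0.03 over all genes. KRT7, a keratin of simple epithelia, rose from 9 to 38 reads per EGFP library to 66 to 339 per SNF5 library (log2 change 2.85 ± 0.23, edgeR adjusted p = 6.86e-05). ADAM12, a metalloprotease, rose by 1.99 ± 0.44 (adjusted p = 0.0093), and PEG10, a retrotransposon-derived gene required for placenta formation, by 1.04 ± 0.26 (adjusted p = 0.0139). ADAM12 stayed low, with a mean of 0.00336 RPKM in EGFP and 0.0125 in SNF5 cells, and KRT7 had 0.0439 and 0.323. The median gene in EGFP cells had 0.754. TEAD4, a transcription factor of early trophoblast, fell by 0.24 (adjusted p = 0.0113). PAPPA, a protease of growth factor binding proteins, was higher with SNF5 than with OmoMYC (0.84 ± 0.19, adjusted p = 0.0167), and DLX3 had a higher pausing index with SNF5 than with EGFP (0.86 ± 0.24, adjusted p = 0.0291).

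All 12 genes listed as binding partners of PSGs passed the gene body filter, and 3 rose and 3 fell with SNF5, beside 17.3% and 17.1% of all genes. ITGB3, the beta chain of the platelet and endothelial integrins, went from 36 to 39 reads per EGFP library to 424 to 505 per SNF5 library (log2 change 3.53 ± 0.30, edgeR adjusted p = 9.14e-05). The heparan sulfate proteoglycans SDC4 (0.64 ± 0.07, adjusted p = 0.000443) and SDC2 (0.65 ± 0.19, 0.0249) rose, and ITGB1 fell by 0.33 (0.0157). With OmoMYC, 2 of 12 rose, beside 3.98% of all genes: TGFB2, a TGF-beta ligand (0.49 ± 0.09, adjusted p = 0.0243), and SDC4 (0.33 ± 0.07, 0.0346). SDC1 had fewer promoter-proximal reads with SNF5 (-0.76 ± 0.23, adjusted p = 0.0459).

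The members did not vary as 1 unit in their gene bodies. After the means of the replicate numbers were removed, PSG4, the member with the most gene body reads, had over the 9 libraries a Pearson correlation of 0.68 with PSG9 and of -0.37 with its neighbour PSG5. The correlations between pairs of members ran from -0.85 (PSG8 and PSG5) to 0.94 (PSG1 and PSG6). The genes most like PSG4 of 15059 were ZNF235 (0.979), ATM (0.977), ARID2 (0.977), RAB3IL1 (0.975) and ELMOD3 (0.975). These are descriptions over 9 points that share constructs and sequencing depth.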

How the data were processed

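PRO-Seq was done in 9 libraries, 3 per construct. Per the study's methods, the authors trimmed reads with cutadapt, kept those over 15 bp, aligned them with Bowtie2 to hg19, removed rRNA and reads with mapping quality under 10, and used NRSA to count reads for each RefSeq transcript. The deposited counts are raw and unnormalized. They cover a promoter-proximal region, the 50 bp window with the most reads within 500 bp of the start, and a gene body from 1000 bp past the start. The deposited gene body density (a signal in reads per bp) served only to check the gene body length. For ATAC-Seq (hg38) and ChIP-Seq (hg19), the authors called peaks per library with MACS2 at q thresholds of 0.001 and 0.01. The deposited lists give fold enrichment as a ratio and −log10 p and q. The single line of each OmoMYC ChIP-Seq list, named as fake in the file, was dropped, and IgG libraries were not analysed here.

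Counts of all genes with a mean of at least 10 reads were fitted in edgeR 4.0.16 (R 4.3.3; limma 3.58.1) by the quasi-likelihood test, with gene body totals times RLE factors as offsets and the replicate number as a block, since the study accounts for a batch. The pausing index was the region by construct term of a joint fit. p-values were adjusted by Benjamini-Hochberg over all genes, with a threshold of 0.05. DESeq2 1.42.0 was an alternative. The scripts were tested on simulated counts. Same-numbered libraries deviated together (r 0.77 to 0.89 in gene bodies and 0.69 to 0.86 near promoters, against at most 0.13 for other pairs), so the number pairs them. The study calls the libraries independent experiments or biological replicates of 1 cell line. With the number as a block, p-values measure how far the construct differences vary between such experiments. The spread of levels between the numbers is removed by the block. Lengths and levels use 1 transcript per symbol. Promoters and the intronic stretch were read from GRCh37 (the build of the PRO-Seq table) with Biopython 1.88 alignments and GENCODE v44 annotation. Cluster bounds for ATAC-Seq came from RefSeq GRCh38. No exchange of coordinates between builds was made.

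The members and gene lists were chosen with earlier results of these data known. Named genes were all members, PSG11, flanking genes within 500 kb, and from each list at most 6 genes past the threshold in any contrast, by smallest p. Alternatives were TMM scaling, scaling each region by its own total, DESeq2, other count filters, fits of 2 constructs, no block, and leaving out libraries; no member had a second transcript to try.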

Additional observations from a re-analysis of the deposited data

How the results depend on the processing

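Without the replicate block no member was called: 0 of 9 in promoter-proximal reads, 0 in gene bodies and 0 in pausing index in every contrast (0 of 11241 genes were called in promoter-proximal reads under that fit, and 223 of 15060 in gene bodies for SNF5 against EGFP). For SNF5 against EGFP, leaving out libraries moved the number called from 4 to between 1 and 7 in promoter-proximal reads, from 3 to between 1 and 8 in gene bodies, and from 2 to between 0 and 6 in pausing index. The fits with the highest counts also called more of all genes than the main fit. Without EGFP library 1 these were 1275 of 11322 in promoter-proximal reads and 935 of 11253 in pausing index. Without all libraries numbered 3 they were 8592 of 14939 in gene bodies. The pausing count was 6 with each region scaled by its own total and 0 with DESeq2 or with 2 constructs fitted. For OmoMYC against EGFP the number went from 0 to at most 1 in promoter-proximal reads and pausing index (1 with each region scaled by its own total, in promoter-proximal reads) and from 0 to at most 7 in gene bodies. The gene body fit with 7, without all libraries numbered 3, called 6752 of 14939 genes. For SNF5 against OmoMYC it was 0 to 1 near promoters (1 with no filter, 2 with 2 constructs fitted), 0 to 4 in gene bodies and 0 to 1 in pausing index. 3 gene body values turned and were past the threshold without the libraries numbered 3: PSG7 (0.18) and PSG2 (0.18) for SNF5 against EGFP, and PSG1 (0.18) for SNF5 against OmoMYC; their lowest values with other libraries left out were -0.29, -0.14 and -0.15. The cause was not tested. TMM scaling and a minimum mean of 2 moved no count by over 1.5 times. The PSG10P pausing value stayed between -1.06 and -0.74 with OmoMYC and between -1.31 and -1.12 with SNF5. The difference in ATAC-Seq peaks for OmoMYC against EGFP was 0.333 per library, -0.333 at −log10 q of at least 5, and 0 to 0.5 with a replicate number left out; for SNF5 it was 1.5 to 6.5 against EGFP and 1 to 6.5 against OmoMYC. The sites gained with SNF5 against EGFP went from 1 to 0 under reciprocal overlap. The number against OmoMYC was 1 under both rules, but not at the same site. The PSG4 site had no EGFP or OmoMYC peak, so a gain there would count against EGFP too. Promoter-proximal totals were lowest in the libraries numbered 1, in which PSG members had 6 to 334 such reads. The gene body totals of these libraries exceeded those of the libraries numbered 2 with the same construct.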

Other observations

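Beyond the sites inside genes, 3 ATAC-Seq sites lay at a like distance before a start: 5342 bp before PSG1 and 5429 bp before PSG6, each with a peak in SNF5 library 1, and 5214 bp before PSG2, with a peak in OmoMYC library 2. Each was in 1 library of 9. The transcript LOC100289650, on the plus strand between PSG8 and PSG10P, had a gene body level of 1.22 RPKM in EGFP cells, and LOC284344, on the minus strand between PSG4 and PSG9, had 2.35. Neither passed the threshold by edgeR in any contrast or region. DESeq2 called LOC284344 in the gene body for OmoMYC against EGFP (log2 change -0.37, adjusted p = 0.0193).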
